A study of Saccharomyces cerevisiae W303 with 24 samples.

Results

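The general stress genes examined here are 46 genes of Saccharomyces cerevisiae. They are the transcription factor genes MSN2 and MSN4 and 44 genes listed with the general stress programme. Control of each of the 44 by these factors was not examined. The 46 genes were chosen by name, with earlier results of these data known. All 46 were found among the 6176 nuclear open reading frames on the array. RNA levels were measured on 24 dual-colour arrays, 1 for each strain, in haploid W303 cells grown in rich medium (YEPD) at 30 degrees. In 12 strains, the disomes, 1 of 12 chromosomes (all but III, IV, VI and VII were covered) was present in 2 copies. In the other 12 strains, the disomes-ubp6Δ, the same chromosomes were duplicated and UBP6, which encodes a deubiquitinating enzyme of the proteasome, was deleted. Each RNA was hybridised against a reference RNA that the labels call wild-type.

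The 2 copies of the duplicated chromosome were kept by selection for HIS3 and KanMX6 markers, and in the disomes-ubp6Δ the URA3 gene of Candida albicans replaced UBP6. Every strain is a single line with 1 array, so the spread given below is between strains that carry different extra chromosomes, and p-values refer to that spread. The labels do not say that any strain was grown or hybridised more than once.

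Msn2 and Msn4 are related zinc finger activators that recognise the stress response element in promoters. In cells growing on abundant glucose, protein kinase A keeps them in the cytoplasm, and heat, osmotic or oxidative stress, starvation or slow growth lets them enter the nucleus, where they induce a broad set of protective, carbohydrate and redox genes. Their activity is set mainly by localisation and phosphorylation.

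All values are log2 ratios of the strain's signal over the reference signal, so that 1 is a 2-fold higher level in the strain. On the disomes-ubp6Δ arrays the sign opposes the direction that the labels give and was turned, since genes on the duplicated chromosome averaged -0.98 to -0.59 there before turning. After turning, the duplicated chromosome had the highest mean of all chromosomes on 24 of 24 arrays. This mean was 0.59 in disome-ubp6Δ XIV, against 0.86 to 0.98 in the other disomes-ubp6Δ and 0.91 in disome XIV. Between 5288 and 6132 genes were measured on a disome array and between 5837 and 6081 on a disome-ubp6Δ array. The arrays came from 4 slides: slide 1 held disomes I to XII, slide 2 disomes XIII, XIV and XV, slide 3 disome XVI with disomes-ubp6Δ I, II, V and VIII, and slide 4 the other 8 disomes-ubp6Δ.

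UBP6 served as a check of the deletion. Its processed intensity was 1235 to 3924 in disomes and 1842 to 4474 in their reference, against 24.2 to 268 in disomes-ubp6Δ and 12.9 to 65.1 in the reference hybridised with them. The RNA labelled wild-type on those 12 arrays therefore had UBP6 signal as low as the deletion strains. Dye orientation, reference RNA and slide all changed with the genotype, and their part in a difference between the genotypes cannot be told apart from that of UBP6.

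Genes lying on a strain's own duplicated chromosome were set apart and are described at the end. For the rest, 21 of 45 stress genes were higher and 3 were lower in the mean of both genotypes, where the 2 values for each chromosome were averaged and tested against 0 with limma, two-sided, at a Benjamini-Hochberg adjusted p of 0.05. Over all 5771 genes tested in the same way, 13.9% were higher and 24.2% were lower. The median of the 45 means was 0.42, and that of all genes was -0.05. SIP18, a desiccation-induced hydrophilin gene, could not be tested there, because it was above background in too few disomes.

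**Figure D1:**
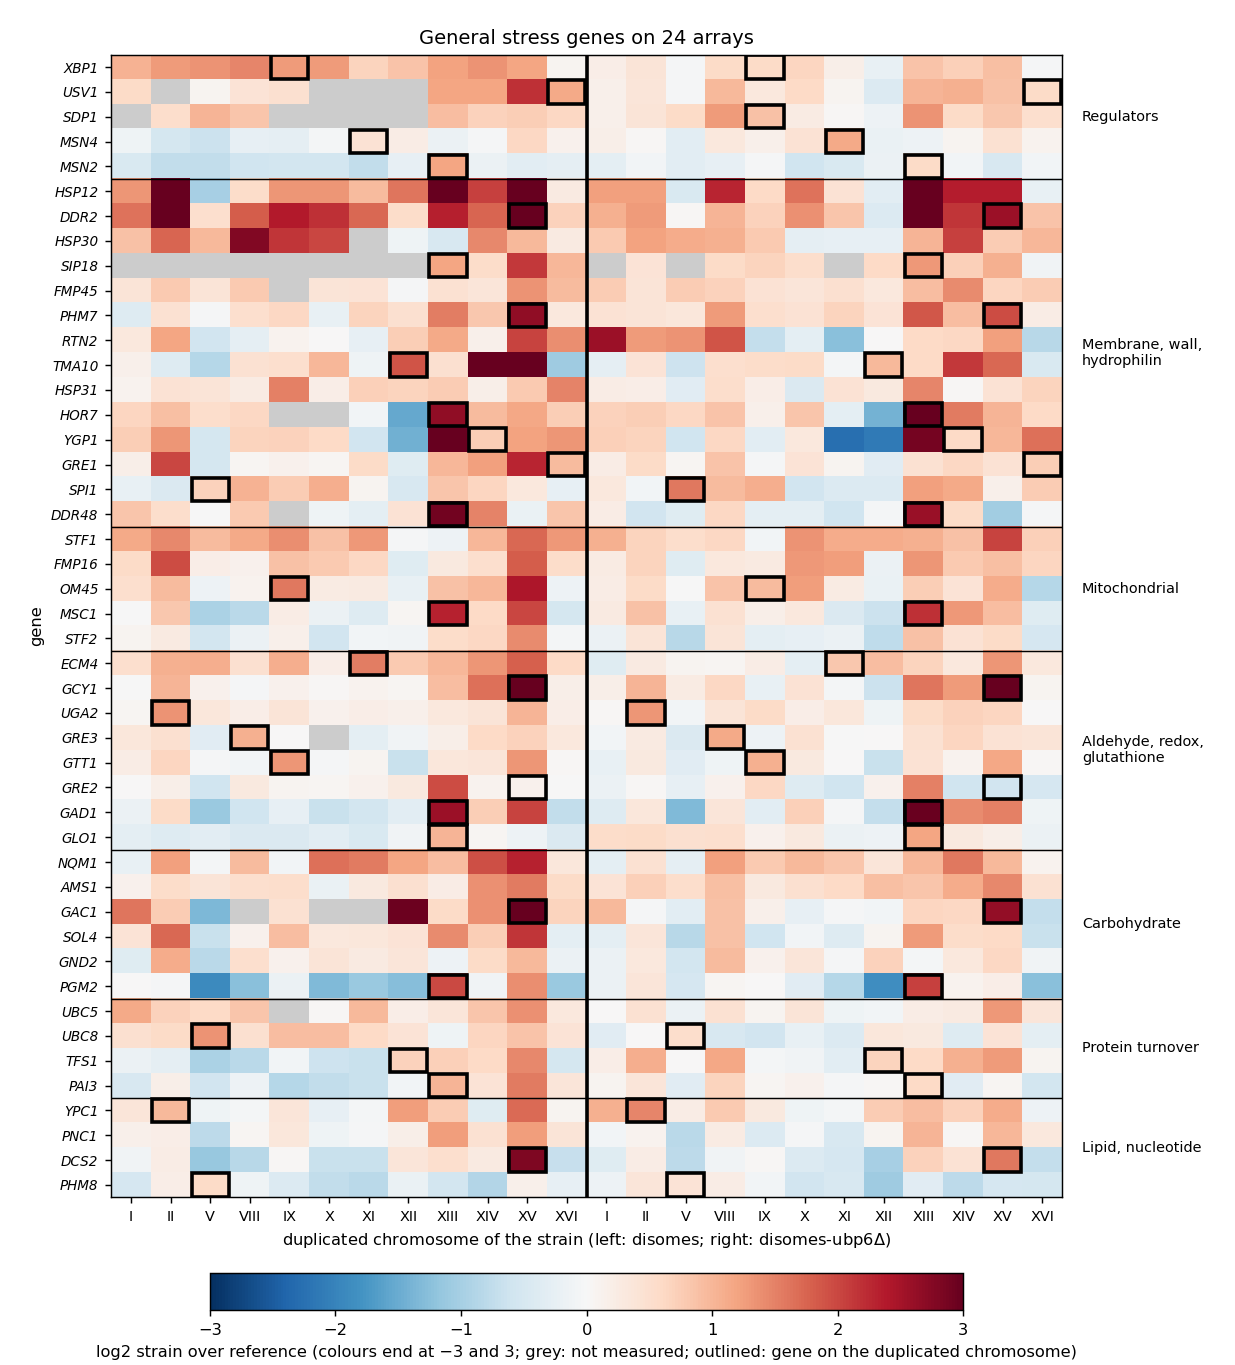
Heat map of the log2 ratio of strain over reference for 46 stress genes (rows, grouped by role and ordered by mean) on 24 arrays (columns, by duplicated chromosome, with disomes on the left and disomes-ubp6Δ on the right). Red is higher in the strain, grey was not measured, and black outlines mark the 63 values of genes on the duplicated chromosome. The columns of disomes XIII, XIV and XV and of their ubp6Δ derivatives are the reddest.

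Each genotype was also tested on its own. In the disomes 18 of 45 stress genes were higher and 3 were lower, against 14.8% and 24.6% of 5852 genes. In the disomes-ubp6Δ 17 of 46 were higher and 2 were lower, against 13.9% and 21.2% of 6005 genes. A gene higher in both genotypes was counted 13 times among 45 stress genes and 280 times among 5813 genes tested in both. No stress gene was called in opposite directions, and over all genes only 187 of the 5813 were. The median of the stress gene means was 0.44 in disomes and 0.30 in disomes-ubp6Δ, where all genes had medians of -0.03 and -0.04.

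These counts depended on how arrays of 1 slide were treated. With slide as a random block, 5 stress genes were higher and 1 was lower in the disomes (all genes 1.40% and 4.31%), and 3 and 0 in the disomes-ubp6Δ (3.73% and 5.91%). In the mean of both genotypes 16 were higher and 2 were lower under the block (7.75% and 13.9%), and the calls of GRE1, RTN2, OM45, UBC8, YPC1 and PGM2 were lost. The members still called higher among the disomes were XBP1, SDP1, DDR2, STF1 and ECM4, and MSN2 was the one still lower. Within single slides, 14 of 42 were higher and 6 lower in the 8 disomes of slide 1 (all genes 22.1% and 28.2%), and 12 of 46 were higher and 1 lower in the 8 disomes-ubp6Δ of slide 4 (11.2% and 17.8%). In the mean of the 4 pairs on slides 1 and 3, 10 of 36 were higher and 1 was lower (16.3% and 19.2%). Leaving out disomes XIII, XIV and XV, which share slide 2, gave 14 higher and 7 lower in disomes (all genes 20.0% and 27.1%) and a median of 0.21. Without these 3 chromosomes the mean of both genotypes had 15 higher and 4 lower of 43 (all genes 14.7% and 22.8%), and its median was 0.18.

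Among the 5 regulators, MSN2 was the one that was lower. Its value was between -0.75 and -0.18 in 11 disomes (median -0.54) and between -0.60 and -0.03 in 11 disomes-ubp6Δ (median -0.25). All 22 of these values were below 0, with disomes II, V and XI lowest. The mean was -0.49 (SE 0.07, n = 11, adjusted p = 0.000273 from limma) in disomes and -0.26 (SE 0.07, n = 11, adjusted p = 0.00939) in disomes-ubp6Δ. MSN4, the paralog, ranged from -0.65 to 0.63 in disomes (median -0.14) and from -0.31 to 0.47 in the disomes-ubp6Δ (median 0.11). The test was passed in neither genotype (means -0.10 and 0.10, SE 0.10 and 0.08, adjusted p = 0.449 and 0.347 from limma), and in both disome V was its lowest and disome XV its highest strain.

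The other 3 regulators were higher in both genotypes. XBP1, a transcriptional repressor induced by stress and in quiescence, was at 0.08 to 1.47 in disomes (median 1.21) and at -0.23 to 0.89 in the disomes-ubp6Δ (median 0.38). In the disomes it was above 0 in 11 of 11 strains and stood near 1 in most, with disome XVI alone close to 0. Its mean was 1.07 (SE 0.11, adjusted p = 5.84e-05 from limma, n = 11) in disomes and 0.38 (SE 0.11, adjusted p = 0.0165, n = 11) in disomes-ubp6Δ. With normexp background correction and loess normalization the mean in disomes was 0.55 and still passed. USV1, a zinc finger factor gene active on non-fermentable carbon, averaged 0.87 over 7 disomes and 0.45 over 11 disomes-ubp6Δ. SDP1, whose product is a phosphatase of the cell wall MAP kinase, averaged 0.76 over 7 disomes and 0.52 over 11 disomes-ubp6Δ. Both were dim genes on the disome arrays, with USV1 well above background in the strain channel of 8 and SDP1 of 7 arrays. With dim spots kept, SDP1 averaged 0.25 in the disomes and did not pass (adjusted p = 0.38 from limma).

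The membrane, cell wall and hydrophilin genes held the highest values, with 8 of 13 higher and none lower in the mean of both genotypes. HSP12, a small membrane-bound protein that is a common reporter of Msn2/Msn4, was at -1.0 to 4.60 in disomes (median 1.33) and at -0.45 to 3.15 in the disomes-ubp6Δ (median 1.23). Disome V was the only disome below 0, and disomes II, XIII and XV stood above 3. Its mean over both genotypes was 1.43 (SE 0.32, n = 12 pairs, adjusted p = 0.0039 from limma), a 2.69-fold higher level. DDR2, induced by DNA damage, heat and many other stresses, was at 0.50 to 3.30 in disomes (median 1.75) and at -0.42 to 3.18 in the disomes-ubp6Δ (median 1.03). Its mean over both genotypes was 1.41 (SE 0.21, n = 11 pairs, adjusted p = 0.000504), and it was above 0 in every disome measured outside chromosome XV.

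HSP30, which encodes a negative regulator of the plasma membrane proton pump Pma1, had another order of strains. It was at -0.49 to 2.79 in disomes (median 0.97) and at -0.27 to 2.05 in the disomes-ubp6Δ (median 0.89), and it was highest in disome VIII and lowest in disome XIII, where HSP12 was at 3.74. The mean over both genotypes was 0.99 (SE 0.17, n = 11 pairs, adjusted p = 0.000876 from limma). FMP45, of the eisosome-associated Sur7 family, was higher in 11 of 11 pairs with a mean of 0.62, PHM7, a membrane protein gene, in 11 of 11 with 0.56, and HSP31, a methylglyoxal-detoxifying DJ-1 family gene, in 11 of 12 with 0.47. The mean of FMP45 was 0.26 with normexp and loess, and its reference signal was well above background on 9 disome and 8 disome-ubp6Δ arrays. GRE1, a hydrophilin gene, and RTN2, a reticulon gene, averaged 0.45 and 0.52 and also passed.

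In this group 5 genes did not pass, namely DDR48, HOR7, SPI1, YGP1 and TMA10, with means over both genotypes of 0.13 to 0.51. Several of them split the strains widely. YGP1, a secreted glycoprotein gene of the cell wall, was at -1.44 in disome XII and at 3.45 in disome XIII, and at -2.27 in disome-ubp6Δ XI, -2.12 in disome-ubp6Δ XII and 2.87 in disome-ubp6Δ XIII. TMA10, a relative of STF2, was at 3.0 and 3.11 in disomes XIV and XV but at -1.07 in disome XVI. HOR7, a hyperosmolarity-responsive gene, was below -1 in the strains with an extra chromosome XII, at -1.53 in the disome and -1.42 in its ubp6Δ derivative, and was between -0.29 and 1.56 in all other strains measured. SIP18, which is 1 of the 17 genes counted as higher in the disomes-ubp6Δ, was at 0.56 to 2.11 in the 3 disomes where it was above background. In the disomes-ubp6Δ it was well above background in the strain channel of 8 arrays and in the reference channel of 3, so that its mean of 0.56 there came mostly from spots kept for the strain's signal alone. That mean was 0.12 with normexp and loess and 0.31 with dim spots kept, and passed in neither (adjusted p = 0.173 and 0.0745 from limma).

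**Figure D2:**
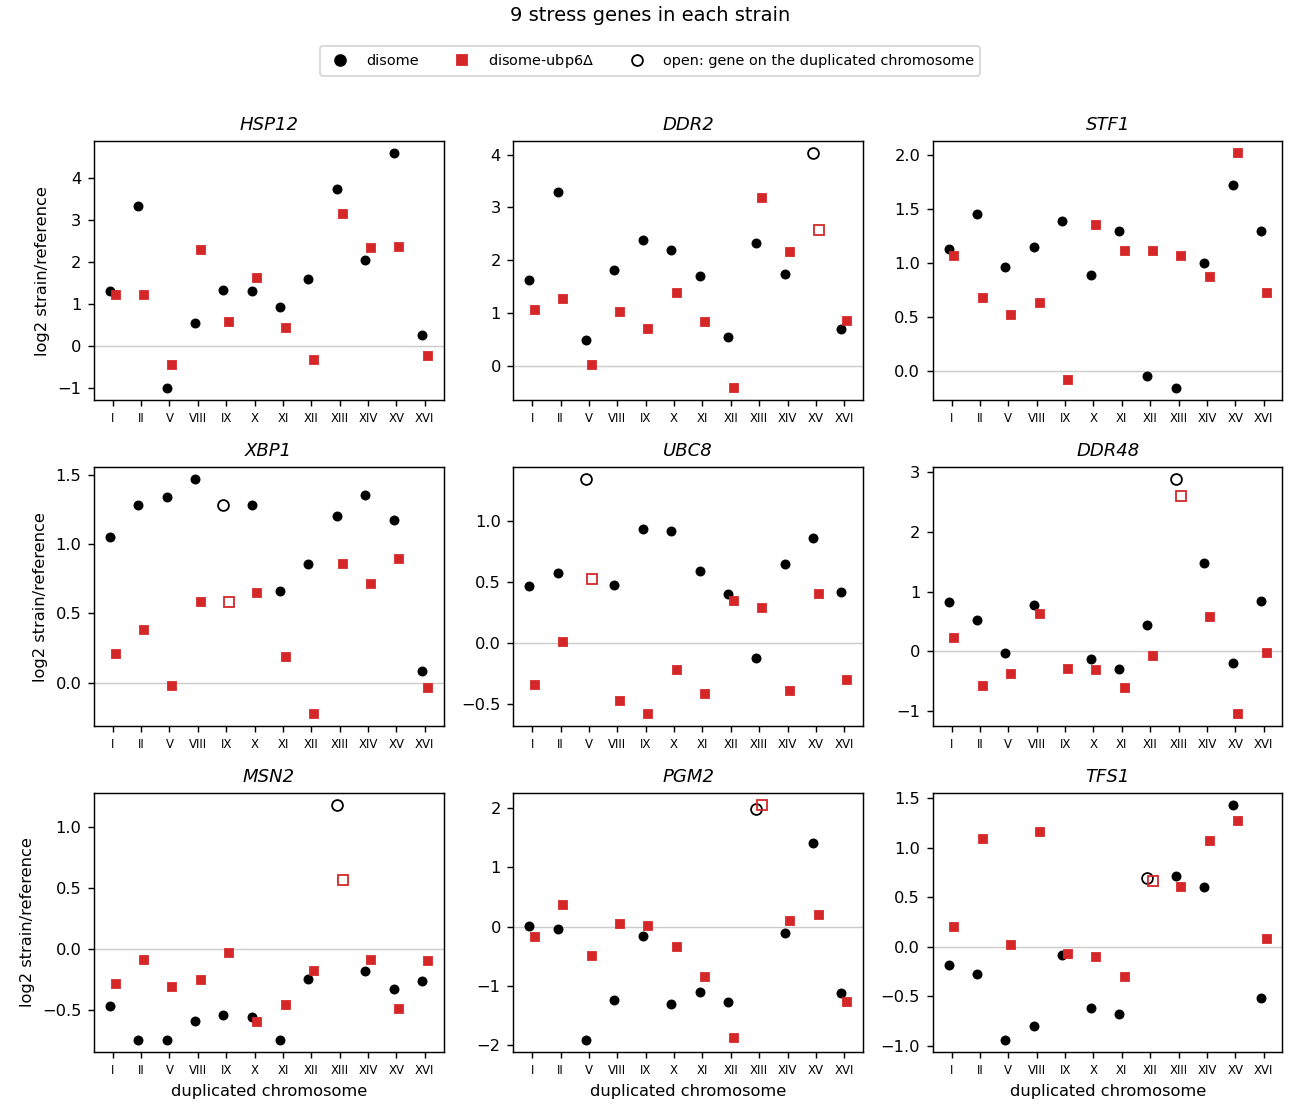
Log2 ratio of strain over reference (y axis, scale set for each panel) of 9 stress genes in the strain with each duplicated chromosome (x axis), with black circles for disomes, red squares for disomes-ubp6Δ and open symbols where the gene lies on the duplicated chromosome. HSP12 reaches 4.60 in disome XV, MSN2 lies below 0 at every filled symbol, and the red squares of XBP1 lie below the black circles of the same chromosome.

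Of the 5 mitochondrial genes, 3 were higher and none was lower in the mean of both genotypes. STF1, a stabiliser of the ATP synthase inhibitor complex, had the highest mean of the 5. It was at -0.16 to 1.72 in disomes (median 1.14) and at -0.08 to 2.02 in the disomes-ubp6Δ (median 0.97). In 21 of 24 arrays it was above 0, and its mean over both genotypes was 0.96 (SE 0.10, n = 12 pairs, adjusted p = 6.05e-05 from limma). FMP16, a mitochondrial protein gene, was at -0.37 to 1.97 in disomes (median 0.57) and at -0.37 to 1.32 in the disomes-ubp6Δ (median 0.66), with a mean of 0.63 (SE 0.13, n = 12 pairs, adjusted p = 0.00269). OM45, an outer membrane protein gene, averaged 0.46 and passed as well. The other 2, STF2 and MSC1, had means of 0.05 and 0.16 and did not pass.

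The carbohydrate genes went both ways, with 2 of 6 higher and 1 lower. NQM1, which encodes a second transaldolase, was at -0.22 to 2.31 in disomes (median 1.06) and at -0.28 to 1.59 in the disomes-ubp6Δ (median 0.81), and its mean over both genotypes was 0.81 (SE 0.17, n = 12 pairs, adjusted p = 0.0025 from limma). AMS1, the vacuolar mannosidase gene, was at -0.19 to 1.55 in disomes (median 0.50) and at 0.29 to 1.45 in the disomes-ubp6Δ (median 0.66). It was above 0 in 12 of 12 disomes-ubp6Δ and averaged 0.63 (SE 0.10, n = 12 pairs, adjusted p = 0.000608). PGM2, the major phosphoglucomutase gene, was on the other side, at -1.92 to 1.40 in disomes (median -1.11) and at -1.87 to 0.36 in the disomes-ubp6Δ (median -0.18). Disome XV was the only disome in which it was clearly above 0, and it was below -1 in 6 of 11 disomes and 2 of 11 disomes-ubp6Δ. Its mean over both genotypes was -0.51 (SE 0.19, n = 11 pairs, adjusted p = 0.0493 from limma), and without disomes XIII, XIV and XV its mean in the disomes was -0.91 (adjusted p = 0.00329). The call on both genotypes was lost under the slide block, with normexp and loess normalization (mean -0.25, adjusted p = 0.185) and when any 1 of 8 pairs was left out (adjusted p up to 0.1). GAC1, a glycogen-targeting subunit of protein phosphatase 1, SOL4, a phosphogluconolactonase, and GND2, a phosphogluconate dehydrogenase, averaged 0.52, 0.35 and 0.22 and did not pass.

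Aldehyde, redox and glutathione genes were the group with the fewest calls for its size, with 2 of 8 higher and none lower in the mean of both genotypes. ECM4, an omega-class glutathione transferase gene, averaged 0.61 (SE 0.12, n = 11 pairs, adjusted p = 0.00184 from limma). UGA2, the succinate semialdehyde dehydrogenase gene, averaged 0.30 and was above 0 in 11 of 11 disomes. The other 6, GRE2 and GRE3 (aldehyde reductases), GCY1 (glycerol dehydrogenase), GLO1 (glyoxalase I), GTT1 (a glutathione transferase) and GAD1 (glutamate decarboxylase), had means between -0.03 and 0.40. GAD1 varied most between strains, from -1.32 in disome-ubp6Δ V to 2.04 in disome XV, with a mean of 0.02.

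In the protein turnover group, the ubiquitin-conjugating enzyme genes UBC5 and UBC8 were higher, with means of 0.47 and 0.20, each above 0 in 11 of 11 pairs. The call of UBC8 was lost with normexp and loess (mean 0.11, adjusted p = 0.162 from limma). UBC5 has a near-identical paralog, UBC4, and how far its probe reads both was not tested. TFS1, a carboxypeptidase Y inhibitor gene, and PAI3, a proteinase A inhibitor gene, averaged 0.17 and -0.04 and did not pass. In the lipid and nucleotide group YPC1, an alkaline ceramidase gene, was higher with 0.42, and PNC1, the nicotinamidase gene, did not pass with 0.18. PHM8, a lysophosphatidate and nucleotide phosphatase gene, was at -0.89 to 0.21 in disomes (median -0.40) and at -1.07 to 0.37 in the disomes-ubp6Δ (median -0.48). It was below 0 in 9 of 11 strains of each genotype, and its mean over both was -0.36 (SE 0.09, n = 11 pairs, adjusted p = 0.00876 from limma). DCS2, which encodes a stress-induced relative of the cap scavenger Dcs1, was at -1.14 to 0.50 in disomes and at -1.01 to 0.68 in disomes-ubp6Δ, with medians of -0.11 and -0.37, and its mean of -0.24 did not pass (adjusted p = 0.165).

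The stress gene medians differed between strains in both genotypes. Taken over the stress genes of a strain, the median was lowest with an extra chromosome V (-0.22 in the disome, -0.24 in its ubp6Δ derivative) and highest with an extra XV (1.38 and 0.89). The 3 highest strains were XV, XIII and XIV in that order in both genotypes, at 1.38, 0.75 and 0.64 in disomes and 0.89, 0.88 and 0.63 in disomes-ubp6Δ. Disome II followed at 0.61, then disomes IX, XVI and VIII at 0.33, 0.28 and 0.26, disomes I and XII at 0.17 and 0.16, and disomes XI and X at 0.08 and 0.04. Among the disomes-ubp6Δ, VIII stood at 0.62, II at 0.38, X at 0.30, I at 0.17 and IX at 0.14, while XVI, XI and XII were at -0.01, -0.05 and -0.16. The median over all genes of an array lay between -0.09 and -0.01. With 1 array each, the order of neighbouring strains has no error of its own.

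**Figure D3:**
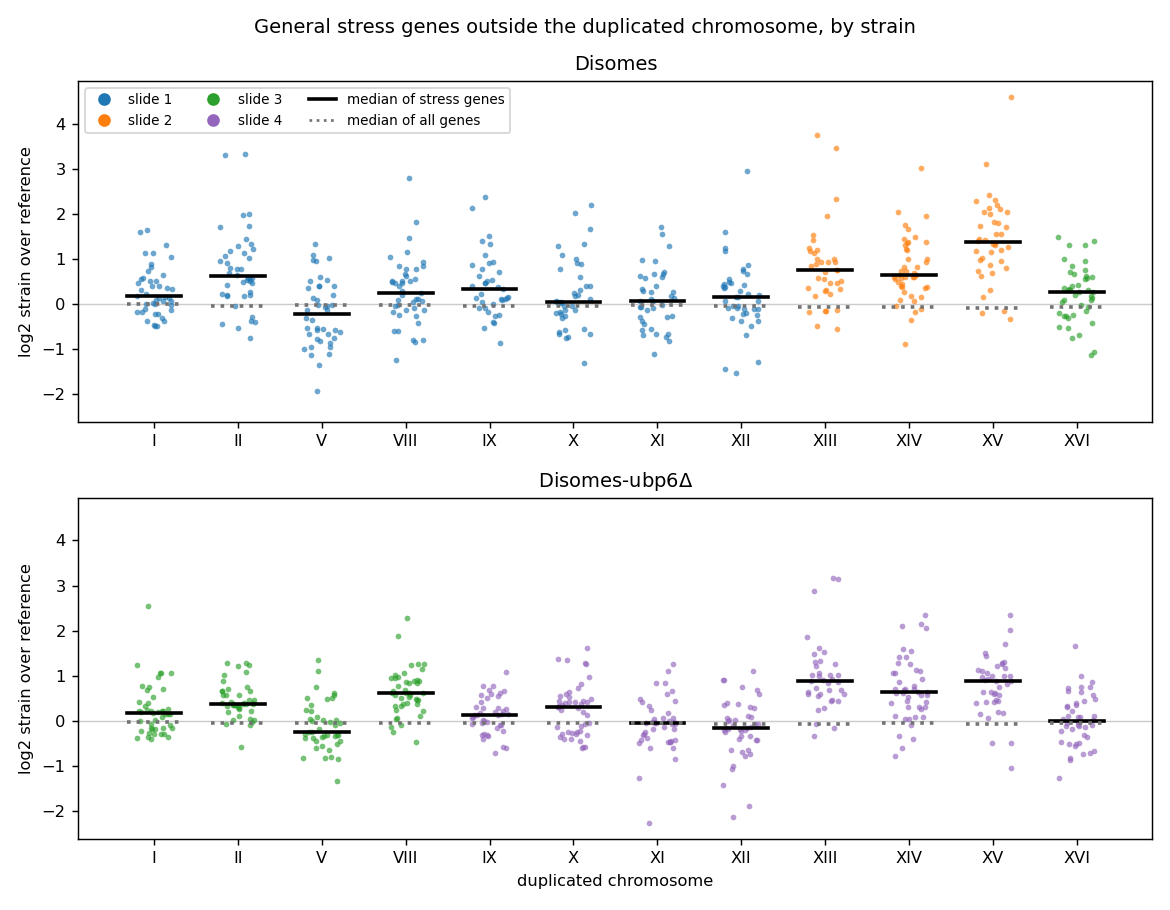
Log2 ratio of strain over reference (y axis) of the stress genes outside the duplicated chromosome, by duplicated chromosome (x axis), for disomes (top) and disomes-ubp6Δ (bottom); 1 point is 1 gene, colours are slides, black bars are medians of the stress genes and dotted bars medians of all genes. The black bar is highest at chromosome XV, 1.38 and 0.89, and below 0 at chromosome V, -0.22 and -0.24.

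A threshold of 1, a 2-fold higher level, gave the same 4 leading disomes in another order. In disome XV, 28 of 40 stress genes exceeded it, against 6.20% of all genes on that array. Of these 40, 27 had their highest value of all disomes there, a count with none over all genes beside it. In disome II 14 of 42 exceeded it (all genes 2.51%), in disome XIV 13 of 45 (3.11%) and in disome XIII 11 of 37 (1.50%). In the disomes-ubp6Δ the counts were 15 of 37 in XIII (3.03%), 14 of 40 in XV (4.30%), 14 of 45 in XIV (4.06%), 8 of 45 in VIII (3.86%) and 6 of 44 in II (0.796%). Only 3 of 40 were below 0 in disome XV, namely MSN2, DDR48 and GLO1, where 42.1% of all genes were above 0.

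Disome V stood at the other end in both genotypes. Of 42 stress genes, 15 were above 0 in disome V and 15 in disome-ubp6Δ V, and disome V was the lowest disome for 18 stress genes. HSP12 was at -1.0 and PGM2 at -1.92 in disome V, yet XBP1 was at 1.34, ECM4 at 1.09 and SDP1 at 1.02 in the same strain. Disome-ubp6Δ XII was the lowest strain of its genotype for 14 stress genes, among them PGM2 at -1.87. The counts of 18 and 14 have no count over all genes beside them.

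Slide and reference moved with part of this order among the disomes. Slide 2 held only disomes XIII, XIV and XV, and the signal of HSP12 in the reference channel there was at the 17.9th to 19.0th percentile of all genes of the array, against the 44.4th to 53.8th on slide 1. DDR2 in the reference was at percentiles 13.4 to 13.6 on slide 2 and 33.7 to 53.1 on slide 1. The reference of disome XVI, the only disome on slide 3, was at percentile 20.5 for HSP12 and 12.6 for DDR2. The log2 ratios in disome XVI were 0.28 for HSP12 and 0.70 for DDR2. For the disomes the strains of slide 2 and the reference used with them cannot be told apart. On slide 4, where the reference percentile of HSP12 was 29.9 to 33.1 on all 8 arrays, disomes-ubp6Δ XV, XIII and XIV were also the 3 highest. Within slide 1, disome II was highest and disome V lowest of 8.

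The low-glucose genes, a list of 12 transporters and enzymes of gluconeogenesis and respiration, were examined beside the stress genes, since Msn2/Msn4 targets are also induced when glucose runs down. HXT7, a high-affinity hexose transporter gene, was at -1.0 to 5.83 in disomes and at -3.44 to 1.30 in disomes-ubp6Δ. It was highest in disomes XV, XIV and XIII, at 5.83, 5.36 and 5.34, and below 0 in disomes V and VIII, at -1.0 and -0.46. In the reference channel HXT7 had a median percentile of 58.9 on the disome arrays and of 95.6 on the disome-ubp6Δ arrays. On slide 2, which held disomes XIII, XIV and XV, its reference percentile was 20.7 to 24.6, against 49.5 to 65.6 on slide 1. In the strain channel its median percentile was 98.2 on slide 2 and 91.7 on slide 1. The part of the reference in the high ratios of slide 2 was not tested. The near-identical HXT6 cannot be separated from it. In the mean of both genotypes 7 of 11 low-glucose genes were higher and 1 was lower (all genes 13.9% and 24.2%), with HXT7 at 1.26 and HXT6 at 1.22. These 2 passed in the disomes, with means of 2.99 and 2.93, but not in the disomes-ubp6Δ, with means of -0.48 and -0.50, and the difference of HXT7 between the genotypes was -3.47 (SE 0.36, lower in 11 of 12 pairs, adjusted p = 4.47e-05 from limma). Of the 5 high-glucose genes PDC1, the major pyruvate decarboxylase gene, was lower at -0.25 (all genes lower 24.2%), and the other 4 did not pass. The median of the low-glucose list was 2.73 in disome XV, the highest of the disomes. The part of glucose supply in the stress gene values was not tested.

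The same strain also stood out in genes that mark the a mating type, whose median was 1.32 in disome XV and 0.75 in disome-ubp6Δ XV, against -1.09 to 0.10 in the other strains. Its part in the stress gene values was not tested.

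Further genes of the programme, 26 targets known for trehalose and glycogen metabolism, chaperones and catalase and kept apart from the 46, followed a like order of strains. Their median was 1.21, 0.80 and 0.56 in disomes XV, XIII and XIV, and 0.82, 0.94 and 0.68 in the corresponding disomes-ubp6Δ, while disome XII was lowest at -0.35 and disome-ubp6Δ XII at -0.41. In the mean of both genotypes 10 of 25 were higher and 1 was lower (all genes 13.9% and 24.2%), with a median of 0.24. HSP26, a small heat shock protein gene, averaged 0.83 (SE 0.22, n = 11 pairs, adjusted p = 0.0111 from limma), and UBI4, the stress-induced polyubiquitin gene, averaged 0.66 (SE 0.09, n = 10 pairs, adjusted p = 0.000266). GSY1, a glycogen synthase gene, was the one that was lower, at -0.50.

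Genes that act upstream of Msn2 and Msn4, 34 in number, went in both directions. In the mean of both genotypes 10 of 33 were higher, 6 were lower and 17 did not pass, with a median of 0.08. Over all genes 13.9% were higher and 24.2% were lower. RIM15, the protein kinase gene of entry into quiescence, averaged 0.49 (SE 0.16, n = 12 pairs, adjusted p = 0.0253 from limma), although its value exceeded 2 with an extra chromosome XII and was between -0.15 and 1.13 elsewhere. PSR1, a phosphatase gene of the stress response, averaged 0.48 (SE 0.12, n = 11 pairs, adjusted p = 0.00728). RAS1 and RAS2, the small GTPase genes that feed protein kinase A, and CDC25, their exchange factor gene, were lower at -0.29, -0.32 and -0.29, each in 11 of 11 pairs. RAS1 by itself was lower in the disomes-ubp6Δ (mean -0.50) and did not pass in the disomes (-0.09). Of the same list, CYR1 was higher in the disomes (0.91) and lower in the disomes-ubp6Δ (-0.21). BCY1 was higher in the disomes-ubp6Δ (0.45) and did not pass in the disomes (-0.25). TPK2, a catalytic subunit gene of protein kinase A, was higher at 0.23, in 11 of 11 pairs. Glc7 phosphatase, which GAC1 targets to glycogen, had its gene GLC7 at 0.48.

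The genotypes were compared as the difference of each disome-ubp6Δ from the disome with the same chromosome, paired by chromosome. The reference on the disome-ubp6Δ arrays had UBP6 signal as low as the deletion strains. If that reference lacks UBP6, an effect of the deletion present in both RNAs would cancel in their ratio, and this difference cannot measure it. Of 45 stress genes 3 were higher and 8 were lower in the disomes-ubp6Δ, against 16.2% and 18.0% of 5771 genes, with a median difference of -0.06 for the stress genes and -0.02 for all genes. Under the slide block 1 was higher and 4 were lower (all genes 6.65% and 6.12%). In the 4 pairs on slides 1 and 3, 9 of 36 were higher and 7 lower, near the shares of all genes (25.5% and 26.4%). The genes that kept their call under the block were GLO1, which was higher, and UBC8, XBP1, DDR48 and ECM4, which were lower.

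Among the genes that passed, UBC8, which marks fructose-1,6-bisphosphatase for degradation, had the lowest difference. The difference of GAC1 was -0.72 over 8 pairs and did not pass (adjusted p = 0.124 from limma). UBC8 was at -0.13 to 0.93 in disomes (median 0.57) and at -0.58 to 0.40 in the disomes-ubp6Δ (median -0.30). UBC8 was lower in 10 of 11 pairs (difference -0.71, SE 0.15, adjusted p = 0.00279 from limma). XBP1 was lower in 11 of 11 pairs (difference -0.69, SE 0.11, adjusted p = 0.000513), although both genotypes were above the reference. For DDR2 the difference was -0.62 (SE 0.22, lower in 8 of 11 pairs, adjusted p = 0.0462), with disomes-ubp6Δ XIII, XIV and XVI above their disomes, and the call was lost when any 1 of 8 pairs was left out (adjusted p up to 0.0969). With normexp and loess, the difference of XBP1 was -0.23 and did not pass (adjusted p = 0.0568). DDR48, a hydrophilin gene induced by DNA damage, was lower in 10 of 10 pairs (difference -0.59), ECM4 in 10 of 11 (-0.58), SOL4 in 11 of 12 (-0.55), YGP1 in 10 of 11 (-0.45) and UBC5 in 9 of 11 (-0.39). With normexp and loess the difference of UBC8 was -0.41 and still passed, and that of UBC5 was -0.12 and did not (adjusted p = 0.247).

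Among the genes that passed, TFS1 had the highest difference. It was at -0.94 to 1.44 in disomes (median -0.28) and at -0.31 to 1.27 in the disomes-ubp6Δ (median 0.20), higher in 9 of 11 pairs with a difference of 0.58 (SE 0.17, adjusted p = 0.0208 from limma). GLO1, which detoxifies methylglyoxal, was at -0.45 to 0.07 in disomes (median -0.32) and at -0.18 to 0.58 in the disomes-ubp6Δ (median 0.30). Only 1 of 11 disomes was above 0 against 8 of 11 disomes-ubp6Δ, and the difference was 0.52 (SE 0.10, higher in 10 of 11 pairs, adjusted p = 0.00196). For MSN2 the difference was 0.23 (SE 0.08, higher in 9 of 11 pairs, adjusted p = 0.0421), and this call too was lost without any 1 of 8 pairs (adjusted p up to 0.0941).

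By strain, the 2 genotypes were furthest apart at chromosome XV, where 37 of 40 stress genes were lower in the disome-ubp6Δ. The median difference there was -0.47 for the stress genes and 0.0008 for all genes. The opposite was seen at chromosome VIII, where 30 of 43 were higher with a median difference of 0.35 (all genes -0.02). These counts of genes have no share over all genes beside them. At the other 10 chromosomes the median difference was between -0.29 and 0.15. Across the 45 genes the means of the genotypes had a Pearson correlation of 0.77, given as a description since genes are not independent replicates.

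**Figure D4:**
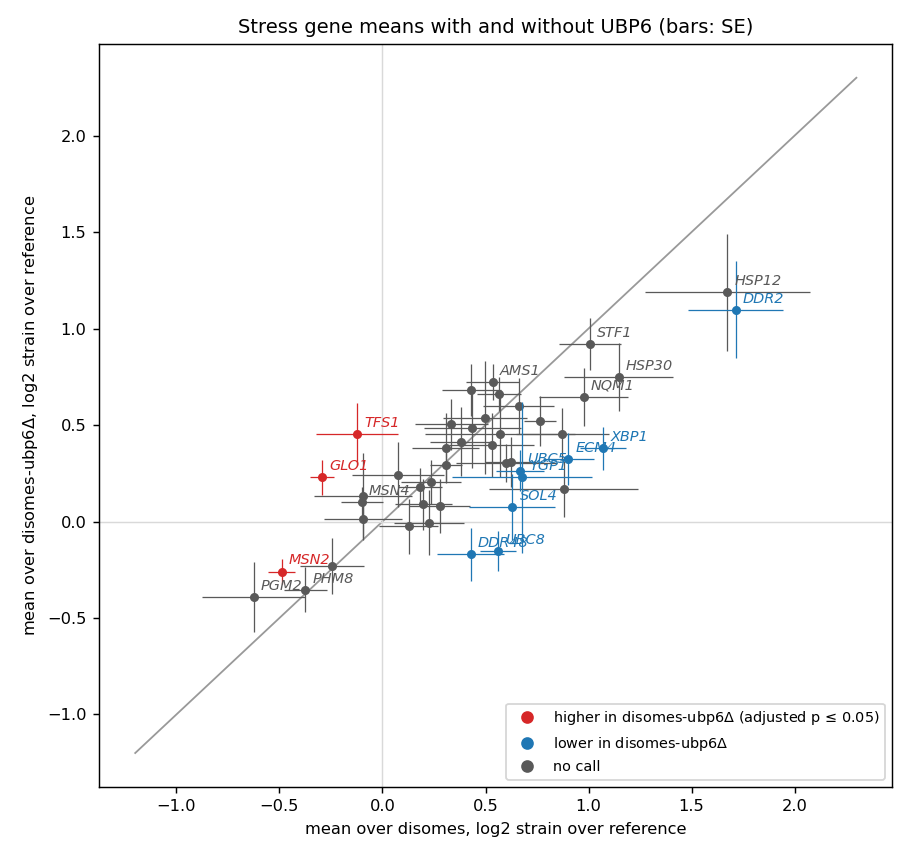
Mean log2 ratio over the disomes (x axis) against the mean over the disomes-ubp6Δ (y axis) for 45 stress genes, with bars of 1 SE and the line of equality; red points were higher and blue points lower in the disomes-ubp6Δ at an adjusted p of 0.05. HSP12 and DDR2 lie furthest to the upper right, and the 8 blue points lie below the line.

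Copy number was measured separately for genes on the duplicated chromosome, which gave 63 values for 32 stress genes. They lay between -0.57 and 4.28 with a median of 1.19, and 62 of 63 were above 0. Over all duplicated genes 4069 of 4279 values in disomes and 4215 of 4418 in disomes-ubp6Δ were above 0. Compared with the mean of the same gene in the strains with 1 copy, the value with 2 copies was higher in 60 of 63 cases, by a median of 1.06 in disomes and 0.96 in disomes-ubp6Δ. The corresponding medians over all duplicated genes were 0.90 and 0.90. In 35 of 63 cases the duplicated gene exceeded every other strain of its genotype. Neither the 60 nor the 35 has a count over all duplicated genes beside it, so neither sets the stress genes apart.

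Chromosomes XIII and XV held the highest of these values. GAC1 was at 4.28 in disome XV and 2.64 in disome-ubp6Δ XV, DDR2 at 4.03 and 2.57, and GCY1 at 3.13 and 2.98. DDR48 was at 2.88 in disome XIII and 2.59 in its ubp6Δ derivative, HOR7 at 2.67 and 3.09, and GAD1 at 2.57 and 2.97. PGM2, below the reference in most other strains, was at 1.99 and 2.05 with an extra chromosome XIII. The 9 stress genes on chromosome XIII had a median of 1.99 in disome XIII, where the stress genes elsewhere had a median of 0.75 and all duplicated genes 0.99, and the 6 on chromosome XV had a median of 2.96 in disome XV, where those values were 1.38 and 0.87.

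GRE2 and PHM8 had the lowest values with 2 copies. GRE2, a methylglyoxal reductase gene on chromosome XV, was at 0.13 in disome XV and -0.57 in disome-ubp6Δ XV, below its mean in the other strains of both genotypes (0.23 and -0.01) and unlike the other 5 stress genes there. PHM8 was at 0.56 and 0.41 with 2 copies of chromosome V, which was 0.94 and 0.76 above its mean elsewhere and above every other strain of the same genotype. TFS1 was at 0.69 and 0.66 with an extra chromosome XII, 0.82 and 0.21 above its mean elsewhere and within the range of the other strains. SIP18 on chromosome XIII was at 1.17 in the disome, close to the mean of 1.22 over only 3 others.

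The duplicated regulators rose above the strains with 1 copy by different amounts. MSN2 was at 1.18 in disome XIII and 0.57 in disome-ubp6Δ XIII, against means of -0.49 and -0.26 elsewhere, and MSN4 was at 0.44 in disome XI and 1.13 in disome-ubp6Δ XI, against -0.10 and 0.10. The stress genes outside the duplicated chromosome had medians of 0.75 and 0.88 with an extra MSN2, and of 0.08 and -0.05 with an extra MSN4. USV1 (1.13 and 0.56) and XBP1 (1.29 and 0.58) were within the range of the other strains when duplicated. With 1 strain of each genotype per regulator, no test was made, and the other genes of the same chromosome were duplicated with it.

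**Figure D5:**
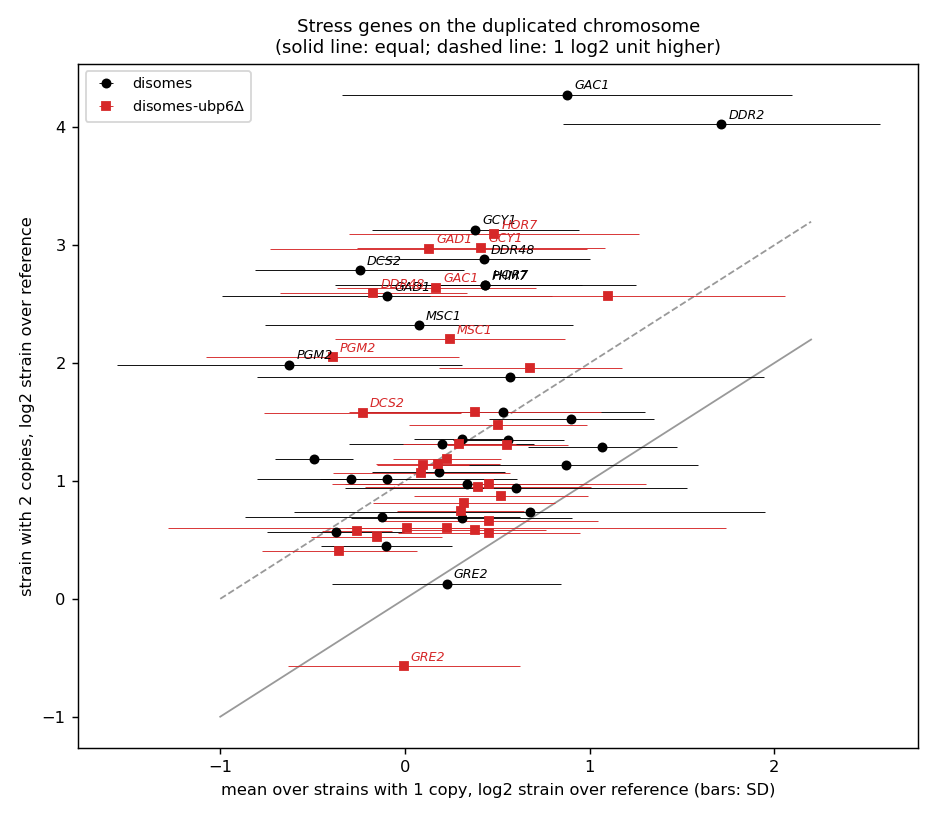
Log2 ratio of a stress gene in the strain where it lies on the duplicated chromosome (y axis) against its mean in the strains of the same genotype with 1 copy (x axis, bars of 1 SD), for disomes (black) and disomes-ubp6Δ (red), where 6 or more strains had 1 copy; the solid line marks equal values and the dashed line a value 1 log2 unit higher. GAC1 and DDR2 in disome XV, at 4.28 and 4.03, are the highest points, and GRE2 lies below the solid line in both genotypes.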

How the data were processed

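The members and gene lists were chosen with earlier results of these data known. The authors scanned the arrays with Agilent Feature Extraction 10.7.1.1, and the deposited intensity columns are processed signals, background-subtracted and dye-normalized by that software. The deposited log10 ratios are of Cy5 over Cy3 from the same signals. The deposited table of values follows log2 ratios of strain over reference, as its comparison with the spots showed, and was used as an alternative; its scale and direction are not stated. Other deposited columns hold flags that the authors' software set for outlier, saturated and well-above-background spots.

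Log2 ratios of processed signals were turned on the disomes-ubp6Δ arrays. Outlier spots were left out, as were those where neither dye was well above background, and the rest were averaged over the spots of a probe and the probes of a gene. Symbols came from RefSeq locus tags, which matched all 46 members. Values on a strain's duplicated chromosome were left out of tests. Means over strains, over the mean of each pair and over the pair difference were tested against 0 with limma 3.58.1 in R 4.3.3, for genes with 6 or more values, adjusted over all genes. In simulated data for the disomes with 5852 genes, 161 of 200 changed genes were recovered with 9 false calls. The simulated arrays were independent, whereas the disome arrays correlated within slides at 0.36. The simulation therefore does not give the error rate of the calls made here. Named genes are MSN2, MSN4, the 8 highest and 4 lowest members in the mean of both genotypes with 8 or more pairs, the 3 highest and 3 lowest differences among members that passed, duplicated members at the extremes, and 2 genes of each other list; genes named besides these were chosen after their values were seen.

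Pairs share the duplicated chromosome by the labels. Their deviations from the genotype means correlated at -0.05 to 0.64. No member had a saturated spot. The number of arrays limits the precision. Alternatives covered spot filters, normexp with an offset of 50 and loess, the deposited ratios and table, centring, the duplicated chromosome, slide, pairing and each replicate.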

Additional observations from a re-analysis of the deposited data

Results flagged for a closer look

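For 11 stress genes the disomes-ubp6Δ and the disomes differed in their response relative to the reference, by the paired test of the difference with limma. Of the 45 tested, 3 were higher and 8 lower, where 16.2% and 18.0% of all genes were, so the count of lower genes is near that share and the count of higher genes is below it. In 3 of them the disomes-ubp6Δ were higher: TFS1 by 0.58, GLO1 by 0.52 and MSN2 by 0.23 on the log2 scale. In 8 they were lower, with differences of -0.39 for UBC5, -0.45 for YGP1, -0.55 for SOL4, -0.58 for ECM4, -0.59 for DDR48, -0.62 for DDR2, -0.69 for XBP1 and -0.71 for UBC8. TFS1 and PAI3, the 2 genes of protease inhibitors among the 46, were at 0.45 and 0.01 in the disomes-ubp6Δ, and the 2 ubiquitin-conjugating enzyme genes UBC5 and UBC8 were at 0.26 and -0.15. The dye, the reference and the slide changed with the genotype, and cannot be told apart from the deletion of UBP6 for any of these 11 genes.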

How the results depend on the processing

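Under the slide block the stress genes called fell from 18 higher and 3 lower to 5 and 1 in disomes, from 17 and 2 to 3 and 0 in the disomes-ubp6Δ, and from 3 and 8 to 1 and 4 in the difference. On the largest slide alone 6 were lower among disomes and 1 among disomes-ubp6Δ. In the 4 pairs on slides 1 and 3, 10 were higher and 1 was lower in the mean of both genotypes, and 9 were higher and 7 lower of 36 in the difference, where 25.5% and 26.4% of all genes were. Keeping the duplicated chromosome left 0 lower in the disomes, the disomes-ubp6Δ and the mean of both. Without disomes XIII, XIV and XV, an alternative chosen after seeing the data, 7 were lower in the disomes. Normexp with loess gave 1 lower in the disomes-ubp6Δ and 5 lower in the difference, and centring gave 1 lower in the disomes-ubp6Δ. Without the pairing (no replicate block) the difference had 1 higher and 3 lower. The cause of these shifts was not tested.

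Leaving out 1 strain at a time gave 16 to 23 higher and 3 to 4 lower in disomes, 14 to 20 and 1 to 2 in disomes-ubp6Δ, 17 to 23 and 2 to 4 in the mean of both, and 2 to 4 higher and 5 to 8 lower in the difference. The difference had 5 lower without the pair of chromosome II or that of XI, and the disomes-ubp6Δ had 1 lower without X, XI, XII, XIV, XV or XVI. No named gene changed sign as a called gene under any alternative run. The planned search of promoters for stress response elements was not run, as no promoter sequence was used here. Normexp with loess made the mean smaller by over 1.5 times for 7 of 21 genes called in disomes, 2 of 19 in disomes-ubp6Δ, 4 of 24 in the mean of both and 3 of 11 in the difference. Dim spots limit SIP18, USV1, SDP1, GAC1 and FMP45, which were at background on several arrays.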
